A study of Homo sapiens with 27 samples.

Results

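The 9 genes described here encode the receptors that detect foreign RNA and the factors that pass the alarm on to interferon-induced genes. They are DDX58, IFIH1, TLR3, MAVS, STAT2, IRF9, IRF1, IRF3 and IRF7, taken by symbol from the 26004 genes of the expression table, and all 9 were present. Total RNA of 3 established human melanoma lines, A2058, A375 and SKMEL2, was sequenced with 50-base paired reads. In every group the cells carried a puromycin-resistant lentivirus that expressed a short hairpin RNA. The control arm (NT) carried a hairpin against Gaussia luciferase, a gene that human cells lack, and the knockdown arms (KD1 and KD2) each carried 1 of 2 hairpins against SIRT5, which encodes a mitochondrial enzyme that removes succinyl and related groups from lysines. Infection lasted 24 h with 8 µg/ml polybrene, puromycin at 1 µg/ml began at 48 h, and RNA was taken from 3 wells at 96 h. Each of the 9 groups of line and arm had 3 libraries, 27 in all. The labels do not say that the wells were infected separately, so p-values measure the spread between wells. Every control cell had also met virus, hairpin and antibiotic, and no uninfected cells were sequenced in the samples analysed here.

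RIG-I (the product of DDX58) and MDA5 (the product of IFIH1) are cytosolic helicases that bind viral or otherwise unusual double-stranded RNA, and both signal through MAVS, an adaptor on the mitochondrial outer membrane. TLR3 binds double-stranded RNA in endosomes and uses a separate adaptor, TRIF. Both routes activate the transcription factors IRF3 and IRF7, which switch on the interferon genes. Secreted interferon then acts through its receptor to bring STAT2 and IRF9 together in the complex ISGF3, which binds the interferon-stimulated response element (ISRE) of many genes, several of the sensors and IRF7 among them. IRF1 is an early-induced factor that binds similar elements. In melanoma cells, intact RNA sensing can restrict growth and raise antigen presentation.

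Promoters were available for 7 of these genes and show which of the 7 carry such elements next to their start. RefSeq promoters (GRCh38.p14, 250 bases before to 50 after the start, 300 in all) matched 7 of the 9 genes. The set held none for IRF3 and IRF7, so those genes were not searched. The promoters were searched on both strands for GAAANNGAA, the core of the ISRE, and for TTCNNNGAA, the site of a STAT dimer. The ISRE core was present in 8.29% of 27305 promoters of the table and in 23 of 32 promoters of interferon-induced effector genes (71.9%). Among the genes described here it was present in IFIH1, with 4 matches, and in TLR3, with 1. The STAT motif was present in 7.88% of promoters and 8 of 32 effectors (25.0%), and in TLR3, IRF9 and IRF1. Neither motif was found in this window of DDX58, MAVS or STAT2. The 4 promoters that hold a match are printed 5′ to 3′ on the gene's own strand, with the matches in capitals. That of IFIH1 at chr2:162318635-162318934 (minus strand) was selected by a rule on calls in at least 2 lines, and those of TLR3 at chr4:186068906-186069205 (plus strand), IRF9 at chr14:24161015-24161314 (plus strand) and IRF1 at chr5:132490724-132491023 (minus strand) were added after their values were seen.
IFIH1: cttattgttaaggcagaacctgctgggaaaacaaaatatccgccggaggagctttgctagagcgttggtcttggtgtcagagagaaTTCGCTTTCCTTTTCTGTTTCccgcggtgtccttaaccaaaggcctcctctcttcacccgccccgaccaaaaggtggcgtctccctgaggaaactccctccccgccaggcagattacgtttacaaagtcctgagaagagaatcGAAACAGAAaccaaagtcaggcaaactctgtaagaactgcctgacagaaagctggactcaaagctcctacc
TLR3: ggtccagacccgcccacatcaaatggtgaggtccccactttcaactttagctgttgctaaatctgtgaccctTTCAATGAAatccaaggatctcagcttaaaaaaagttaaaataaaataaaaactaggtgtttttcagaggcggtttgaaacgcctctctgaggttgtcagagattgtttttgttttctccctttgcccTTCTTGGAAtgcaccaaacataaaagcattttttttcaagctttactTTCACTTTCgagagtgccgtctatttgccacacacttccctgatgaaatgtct
IRF9: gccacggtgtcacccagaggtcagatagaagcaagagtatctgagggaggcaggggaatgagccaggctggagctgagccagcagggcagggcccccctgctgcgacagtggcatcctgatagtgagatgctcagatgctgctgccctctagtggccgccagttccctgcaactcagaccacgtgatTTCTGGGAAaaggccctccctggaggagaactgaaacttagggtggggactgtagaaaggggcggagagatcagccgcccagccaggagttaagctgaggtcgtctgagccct
IRF1: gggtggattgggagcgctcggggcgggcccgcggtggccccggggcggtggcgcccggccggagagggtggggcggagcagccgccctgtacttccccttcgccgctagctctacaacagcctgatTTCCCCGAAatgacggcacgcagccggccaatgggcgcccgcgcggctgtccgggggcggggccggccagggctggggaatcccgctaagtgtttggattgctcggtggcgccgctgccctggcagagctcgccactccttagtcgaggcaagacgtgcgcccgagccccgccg
The IFIH1 matches begin 164, 158, 152 and 21 bases before the start, and the first 3 overlap one another. The TLR3 ISRE core begins 3 bases before its start and its STAT motifs 178 and 50 bases before. The STAT motif of IRF9 begins 63 and that of IRF1 124 bases before the start. A match is a string of letters and says nothing of binding in these cells.

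Levels are given as FPKM, fragments per kilobase of gene scaled for sequencing depth, and effects as differences of log2(FPKM + 0.5) with their standard error. Whole reads could be recovered from the FPKM values, and the libraries held 7096990 to 54452938 reads in genes, with the A375 libraries the shallowest at 7096990 to 23892063 reads. SIRT5 itself was between 3.89% and 20% of its control mean in the 6 knockdown arms. The melanocyte factor SOX10 had a mean FPKM from 81.9 to 288 in every group, while the pigment genes MLANA, TYR, TYRP1 and DCT were at or under 0.179 in all A375 arms. The 8 melanocyte markers moved with the knockdown, with 5 lower and 3 higher in A2058 (median -0.48), 1 lower and 3 higher of 4 tested in A375 (0.79), and 7 lower and 0 higher in SKMEL2 (-1.04). MITF, the regulator of the pigment genes, was between 38.4% and 53.1% of its control mean in all 6 knockdown arms. Of 8 leukocyte markers 7 were measured and 2, LYZ and CD14, passed the filter. Their highest arm means were 21 for LYZ (A375 KD1) and 11.3 for CD14 (SKMEL2 KD2). The pan-leukocyte gene PTPRC had an arm mean of at most 0.125 and the T cell gene CD3E of at most 0.117. The summed FPKM of the 7 leukocyte markers, most of it LYZ and CD14, was 2.06 to 2.91 in the A2058 controls and 5.05 to 6.56 in its knockdown libraries, 11.3 to 14.1 against 12.7 to 23.6 in A375, and 7.60 to 8.11 against 11.7 to 20 in SKMEL2. The part of either list in the results was not tested. In these bulk samples fewer cells that express a gene and less RNA per cell cannot be told apart.

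Of 40 listed interferon-induced effectors, antiviral genes such as IFIT1, 37 were tested over the lines, and these served as the yardstick for the sensors and factors. The mean of their log2(FPKM + 0.5) was 2.75 to 2.91 in the A2058 controls and 2.13 to 2.20 in the 6 knockdown libraries. In A375 the controls stood at 4.08, 3.58 and 3.35 and the knockdown libraries at 1.85 to 2.07. In SKMEL2 controls 1 and 2 stood at 2.46 and 2.43 and control 3 at 3.38, against 2.01 to 2.28 in the knockdown libraries. SKMEL2 control 3 therefore stood apart from the other controls of its line, and the knockdown effects in SKMEL2 are also given without it, an alternative chosen after the data were seen. In limma, with Benjamini-Hochberg adjustment over all genes tested and a threshold of 0.05, 25 effectors fell and 4 rose of 33 in A2058 (median effect -0.60), 30 fell and 0 rose of 34 in A375 (-1.76), and 18 fell and 0 rose of 32 in SKMEL2 (-0.53). Without SKMEL2 control 3 the last was 14 falling and 4 rising of 28 (-0.27), where 3967 of 13722 genes tested fell and 4228 rose. Effectors such as IFIT1 and OASL entered the A375 fit through control libraries alone, which favours a fall. Their highest knockdown values there were 0.635 and 0.774 FPKM. The number of such effectors in each line was not counted. The median over all genes tested lay between -0.01 and 0.02 in the 3 lines.

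**Figure D1:**
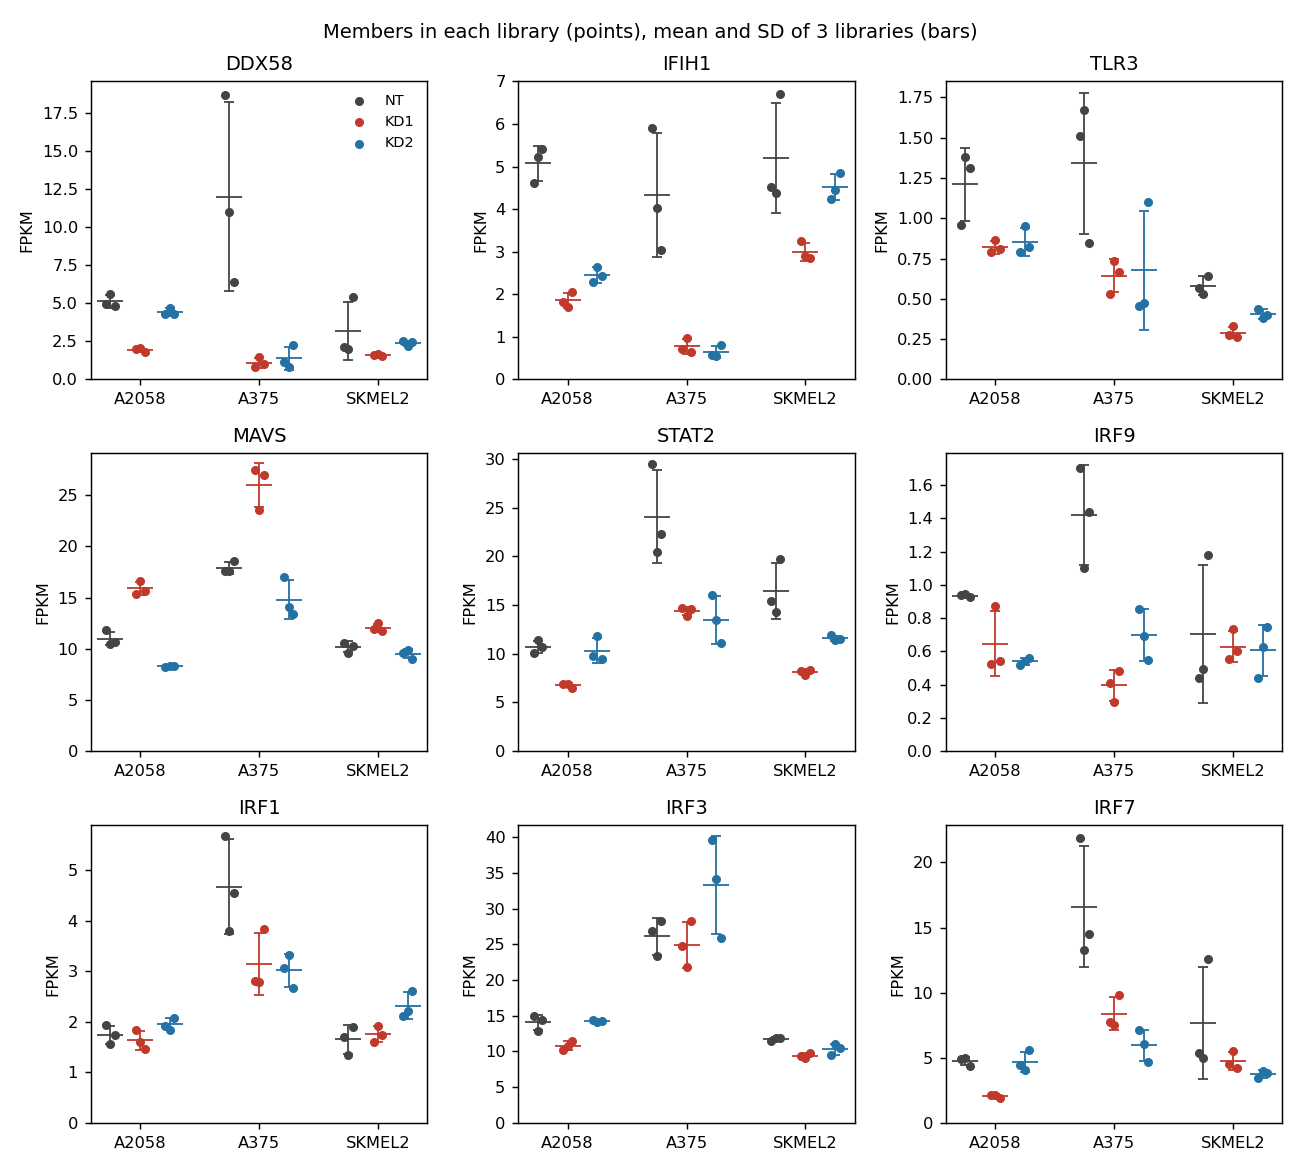
FPKM of the 9 genes in each of the 27 libraries, by line (x axis) and arm (colour: control NT, KD1, KD2). Points are libraries and bars the mean and SD of 3. DDX58 in A375 fell from 6.39 to 18.7 in the controls to at most 2.23 in the knockdown libraries, and MAVS was higher in KD1 than in KD2 in every line.

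The cytosolic sensors DDX58 and IFIH1 fell furthest of the 9 genes when averaged over the lines, and their fall was deepest in A375. DDX58 (ENSG00000107201, RIGI in newer annotation, chr9:32455302-32526208, minus strand, GRCh38) had an FPKM of 18.7, 11 and 6.39 in the A375 controls. It had 0.789, 1.44 and 0.986 in KD1 and 1.14, 0.779 and 2.23 in KD2. All 6 knockdown libraries lay below all 3 controls. Its level averaged 8.92% of the control mean in KD1 and 11.5% in KD2, from 31 to 127 reads per library. The limma effect of the pooled arms was -2.79 ± 0.32 (adjusted p = 0.00016), 6.90 times lower on the offset scale.

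In A2058 DDX58 divided the hairpins. The controls had an FPKM of 4.93, 5.60 and 4.85, the KD1 libraries 2.00, 2.06 and 1.80, and the KD2 libraries 4.26, 4.71 and 4.30. KD1 lay far below the controls, whereas KD2 lay just under them. The limma effects were -1.20 ± 0.07 with KD1 (adjusted p = 2.0e-07) and -0.19 ± 0.07 with KD2 (adjusted p = 0.040), and the difference of 1.01 ± 0.07 between the arms was itself called (adjusted p = 5.9e-07). The call with KD2 was lost in 4 of 9 fits that left out 1 library, with effects from -0.23 to -0.13. In SKMEL2 the controls had an FPKM of 2.15, 1.97 and 5.41, KD1 1.57, 1.67 and 1.52, and KD2 2.53, 2.20 and 2.42. The first 2 controls lay below every KD2 library and the third far above. The pooled effect of -0.46 ± 0.23 was not called (adjusted p = 0.11) and became -0.06 ± 0.07 without control 3 (adjusted p = 0.48). KD1 alone was called lower with that control (-0.70 ± 0.27, adjusted p = 0.043) and without it (-0.30 ± 0.08, adjusted p = 0.011), but its call was lost in 6 of 9 fits that left out 1 library. With KD2 the effect was -0.23 ± 0.27 with control 3 and 0.17 ± 0.08 without it, called in neither (adjusted p = 0.48 and 0.096). In release 44 of GENCODE, 43.2% of the exonic bases of DDX58 are shared with another gene on the same strand, ENSG00000288684, a gene not used here, and how its reads were divided was not tested.

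IFIH1 (ENSG00000115267, chr2:162267074-162318684, minus strand) was called lower by limma in the pooled arms of each line, as were STAT2 and IRF7. In A2058 its FPKM was 4.62, 5.22 and 5.41 in the controls, 1.82, 1.71 and 2.05 in KD1, and 2.28, 2.65 and 2.43 in KD2. No library of either knockdown arm reached the lowest control. The limma effect was -1.08 ± 0.07 (adjusted p = 4.2e-07), with -1.24 in KD1 and -0.92 in KD2. In A375 the controls had 5.90, 4.03 and 3.05, KD1 0.719, 0.968 and 0.641, and KD2 0.568, 0.553 and 0.799. The arms stood at 17.9% and 14.8% of the control mean, from 17 to 79 reads. The effect was -1.97 ± 0.19 (adjusted p = 6.1e-05). IFIH1 entered the A375 fit only through its 3 control libraries, since all 6 knockdown libraries were under 1 FPKM, and with no filter its adjusted p was 0.00037. In SKMEL2 the controls had 4.51, 4.39 and 6.70, KD1 3.24, 2.90 and 2.86, and KD2 4.24, 4.45 and 4.84. Only KD1 lay clear of the controls there. The pooled effect of -0.42 ± 0.11 (adjusted p = 0.0088) was -0.24 ± 0.06 without control 3 (adjusted p = 0.011). With KD1 the effect was -0.68 ± 0.13 (adjusted p = 0.0012), or -0.50 ± 0.07 without control 3 (adjusted p = 0.00034), and with KD2 -0.16 ± 0.13 (adjusted p = 0.30), or 0.02 ± 0.07 without control 3 (adjusted p = 0.87). KD2 stood above KD1 by 0.52 ± 0.13 (adjusted p = 0.0060).

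TLR3 (ENSG00000164342, chr4:186068911-186088073, plus strand), the endosomal sensor, was expressed at a low level. In A375 its FPKM was 1.51, 1.67 and 0.847 in the controls, 0.531, 0.733 and 0.668 in KD1, and 0.455, 0.475 and 1.10 in KD2. One KD2 library lay above the lowest control. The pooled limma effect was -0.66 ± 0.22 (adjusted p = 0.031), while KD1 and KD2 alone, each at -0.66 ± 0.25, did not pass (adjusted p = 0.054 and 0.057). The pooled call was lost in 4 of 6 fits that left out 1 library. In A2058 the controls had 0.957, 1.38 and 1.31 and the knockdown libraries 0.789 to 0.949, and in SKMEL2 the controls had 0.529 to 0.644 and the knockdown libraries 0.264 to 0.436. The groups did not overlap in either line. TLR3 was under the filter of at least 1 FPKM in 3 libraries of each. Without that filter its limma effect was -0.35 ± 0.11 (adjusted p = 0.027) in A2058. It was -0.35 ± 0.06 (adjusted p = 0.0019) in SKMEL2, and -0.31 ± 0.07 without control 3 (adjusted p = 0.010).

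The adaptor MAVS (ENSG00000088888, chr20:3846799-3876123, plus strand) did not go with the sensors. In A2058 its FPKM was 11.8, 10.5 and 10.7 in the controls, 15.4, 16.6 and 15.6 in KD1, and 8.26, 8.36 and 8.31 in KD2. In A375 it was 17.6, 17.6 and 18.6 in the controls, 27.5, 23.6 and 27.0 in KD1, and 17.0, 14.1 and 13.4 in KD2. In SKMEL2 it was 10.6, 9.61 and 10.3 in the controls, 11.9, 12.5 and 11.7 in KD1, and 9.57, 9.92 and 9.02 in KD2. Every KD1 library lay above every control of its line, and the KD2 libraries of A2058 and A375 all lay below. MAVS rose with KD1 in A2058 by 0.51 ± 0.05, in A375 by 0.52 ± 0.12 and in SKMEL2 by 0.23 ± 0.05 (limma adjusted p = 8.5e-06, 0.0054 and 0.0026). With KD2 it fell in A2058 (-0.38 ± 0.05, adjusted p = 7.6e-05), and its effects of -0.27 ± 0.12 in A375 and -0.09 ± 0.05 in SKMEL2 did not pass (adjusted p = 0.089 and 0.14). The difference of KD2 from KD1 was called in each line, at -0.89 ± 0.05, -0.79 ± 0.12 and -0.32 ± 0.05 (adjusted p = 1.0e-07, 0.00062 and 0.00031). The pooled effects of 0.06, 0.13 and 0.07 therefore averaged arms that differed from one another, and none was called. Without SKMEL2 control 3 the effects there were 0.24 ± 0.06 with KD1 (adjusted p = 0.0074) and -0.08 ± 0.06 with KD2 (adjusted p = 0.25).

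STAT2 (ENSG00000170581, chr12:56341597-56360203, minus strand) supplies the activation domain of ISGF3. In A375 its FPKM was 29.5, 20.5 and 22.3 in the controls, 14.7, 13.9 and 14.6 in KD1, and 16, 13.5 and 11.1 in KD2. All 6 knockdown libraries lay below the controls. The limma effect was -0.76 ± 0.14 (adjusted p = 0.0022). In SKMEL2 the controls had 15.4, 14.3 and 19.7, KD1 8.21, 7.85 and 8.37, and KD2 11.9, 11.4 and 11.5. The arms did not overlap one another, and KD1 was the lowest. The effect was -0.71 ± 0.08 (adjusted p = 5.2e-05) and stayed at -0.58 ± 0.04 without control 3 (adjusted p = 1.2e-05). In A2058 the controls had 10.1, 11.4 and 10.7, KD1 6.92, 6.92 and 6.51, and KD2 9.77, 11.8 and 9.46. KD1 was lower by -0.62 ± 0.08 (adjusted p = 4.4e-05) and KD2 overlapped the controls at -0.05 ± 0.08 (adjusted p = 0.56). The difference of 0.57 ± 0.08 between these arms was called (adjusted p = 8.1e-05).

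IRF9 (ENSG00000213928, chr14:24161234-24168043, plus strand), the DNA-binding part of ISGF3, was with TLR3 the least abundant of the 9 genes in the control arms. In A375 it had an FPKM of 1.70, 1.10 and 1.44 in the controls, 0.409, 0.296 and 0.479 in KD1, and 0.855, 0.695 and 0.545 in KD2, from 16 to 105 reads. Controls and knockdown did not overlap. The limma effect of -0.88 ± 0.16 (adjusted p = 0.0019) comes from a gene that entered the fit only through its 3 control libraries. In A2058 the controls had 0.938, 0.944 and 0.924, and the knockdown libraries 0.518 to 0.870. Without the filter the effect there was -0.40 ± 0.11 (adjusted p = 0.017). In SKMEL2 the controls had 0.437, 0.496 and 1.18 and the knockdown libraries 0.441 to 0.748, so that control 3 alone stood above. The unfiltered effect was -0.06 ± 0.19 (adjusted p = 0.81), and 0.20 ± 0.12 without control 3 (adjusted p = 0.25). In release 44, 23.9% of the exonic bases of IRF9 are shared with a second gene on its strand, ENSG00000259529. That gene is also in the expression table, and how reads of the pair were divided was not tested, so the level of IRF9 may be understated.

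IRF7 (ENSG00000185507, chr11:612553-615983, minus strand), the interferon-inducible factor that amplifies interferon production, followed the pattern of DDX58 in A2058. Its FPKM there was 4.87, 4.96 and 4.37 in the controls, 2.14, 2.16 and 1.88 in KD1, and 4.43, 4.09 and 5.57 in KD2. KD1 was clear of the controls and KD2 overlapped them. The limma effects were -1.03 ± 0.10 (adjusted p = 6.3e-06) and -0.02 ± 0.10 (adjusted p = 0.88), and the difference between the arms was 1.01 ± 0.10 (adjusted p = 6.4e-06). In A375 the controls had 21.9, 13.3 and 14.5, KD1 7.75, 7.55 and 9.85, and KD2 7.10, 6.06 and 4.67. Both arms lay below all controls. The pooled effect was -1.15 ± 0.18 (adjusted p = 0.00087). In SKMEL2 the controls had 5.33, 4.99 and 12.6, KD1 4.53, 5.50 and 4.20, and KD2 3.43, 4.0 and 3.86. KD1 overlapped the first 2 controls, and KD2 lay below all 3. The pooled effect of -0.67 ± 0.24 (adjusted p = 0.033) was -0.26 ± 0.09 without control 3 (adjusted p = 0.037), and with KD2 alone -0.82 ± 0.28 (adjusted p = 0.027) became -0.41 ± 0.10 (adjusted p = 0.0088). The call of the pooled arms was also lost in 4 of 9 fits that left out 1 library.

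IRF1 (ENSG00000125347, chr5:132440440-132508719, minus strand), best known as a gene switched on by interferon gamma, was called lower in A375 alone. Its FPKM in A375 was 5.68, 3.80 and 4.55 in the controls, 2.80, 2.78 and 3.84 in KD1, and 3.06, 3.32 and 2.67 in KD2. One KD1 library reached past the lowest control. The limma effect was -0.52 ± 0.15 (adjusted p = 0.016), and it was -0.39 and no longer called when control 1 was left out (adjusted p = 0.093). In A2058 the controls had 1.93, 1.56 and 1.73, KD1 1.84, 1.59 and 1.46, and KD2 1.92, 1.84 and 2.07. The arms overlapped. The effect was 0.03 ± 0.08 (adjusted p = 0.80). The SKMEL2 controls had 1.70, 1.34 and 1.90, KD1 1.59, 1.91 and 1.74, and KD2 2.12, 2.22 and 2.61. KD2 lay above every control and rose by 0.40 ± 0.11 (adjusted p = 0.010), and the pooled effect of 0.23 ± 0.09 missed the threshold with control 3 (adjusted p = 0.053) and passed without it (0.32 ± 0.10, adjusted p = 0.024). Of the exonic bases of IRF1, 22.9% overlap the antisense gene IRF1-AS1. The sources used here do not give the use of strand in counting, so reads of the pair cannot be told apart.

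IRF3 (ENSG00000126456, chr19:49659569-49665875, minus strand) is present in most cells before any infection and is activated by phosphorylation rather than induction. In A2058 its FPKM was 14.9, 12.9 and 14.4 in the controls, 10.2, 10.8 and 11.5 in KD1, and 14.4, 14.1 and 14.2 in KD2. KD1 lay below the controls and KD2 within them. The limma effects were -0.36 ± 0.06 (adjusted p = 0.00033) and 0.02 ± 0.06 (adjusted p = 0.81). The SKMEL2 controls had 11.4, 11.9 and 11.9, KD1 9.35, 9.13 and 9.74, and KD2 9.44, 11 and 10.5. All knockdown libraries lay under the controls. The pooled effect was -0.24 ± 0.05 (adjusted p = 0.0014), or -0.23 ± 0.06 without control 3 (adjusted p = 0.0075). In A375 the controls had 26.9, 23.3 and 28.2, KD1 24.7, 21.8 and 28.2, and KD2 39.6, 34.2 and 25.9. The arms overlapped. The effect was 0.13 ± 0.14 (adjusted p = 0.48). The gene BCL2L12 lies on the opposite strand over 19.3% of the exonic bases of IRF3.

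**Figure D2:**
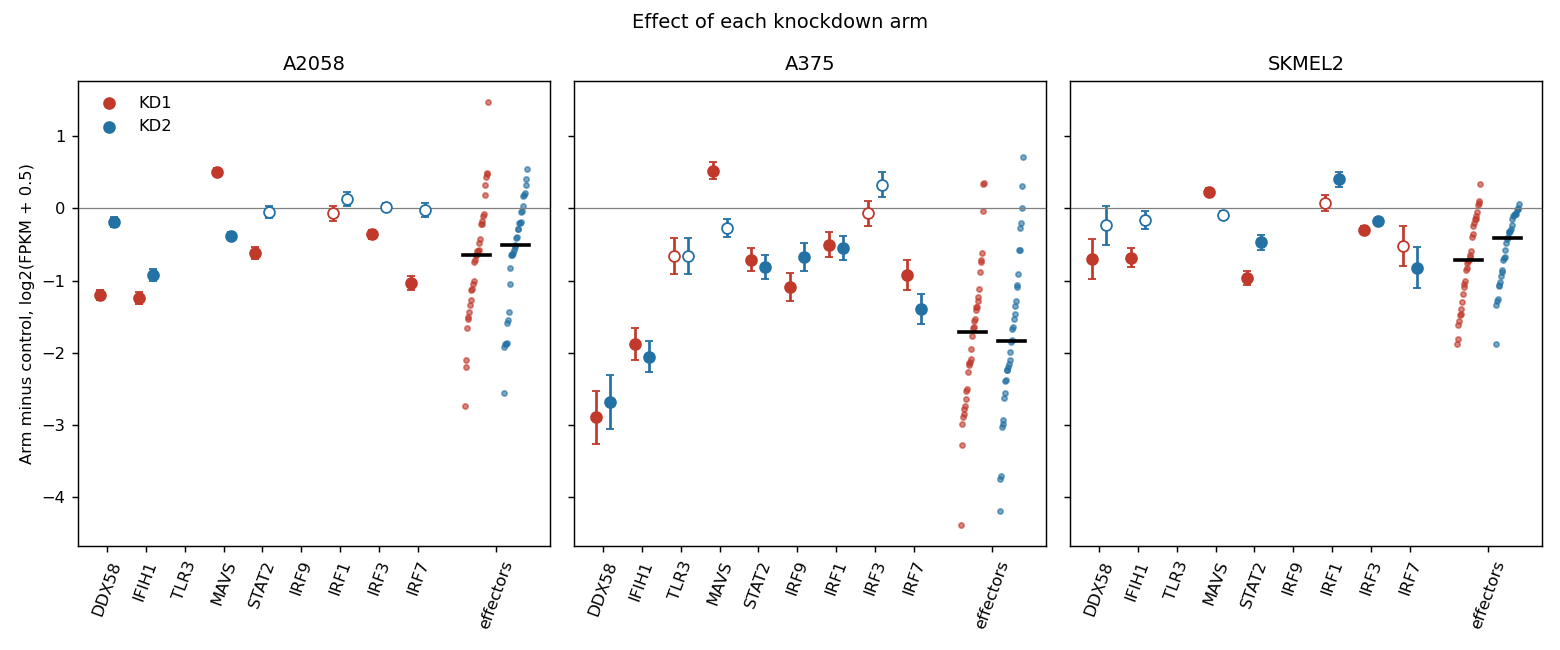
Effect of each knockdown arm against the control arm in each line, as a difference of log2(FPKM + 0.5) with its standard error (filled: called at an adjusted p of 0.05; open: not called), beside the interferon-induced effectors (small points; black line: median). In A2058 the effector medians were -0.64 in KD1 and -0.50 in KD2, while IRF7 was at -1.03 and -0.02.

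Counted by line, 5 of 7 genes tested in A2058 were called lower and 0 higher in the pooled arms, where 34.7% and 34.6% of all genes tested were called lower and higher. In A375 it was 7 of 9 lower and 0 higher, against 21.7% and 26.2%, a count that includes IFIH1 and IRF9, which passed the filter through the controls alone, and TLR3, which passed it through 2 controls and 1 KD2 library. The count was 6 of 9 with no filter, and it fell to 3 without control 1 and 4 without control 2, when 6 of the 9 genes passed the filter. In SKMEL2 it was 4 of 7 lower and 0 higher, against 32.4% and 32.9%. Without control 3 it was 4 lower and 1 higher, IRF1, where 3967 of 13722 genes tested were lower and 4228 higher. Over the 3 lines 6 of 9 were lower and 0 higher, against 32.0% in each direction. These 6 were DDX58 (-1.32 ± 0.15), IFIH1 (-1.16 ± 0.08), IRF7 (-0.78 ± 0.12), STAT2 (-0.60 ± 0.06), TLR3 (-0.45 ± 0.08) and IRF9 (-0.45 ± 0.09), with limma adjusted p-values of at most 0.00012. IRF9 passed the filter of that fit through control libraries alone, and TLR3 through 4 control libraries and 1 knockdown library. MAVS, IRF1 and IRF3 were at 0.09, -0.09 and -0.10 and not called. A median of -0.93 over the 37 effectors, of which 36 fell and 1 rose, stood beside them. The authors' deposited table of a DESeq2 test over all lines listed 6 of these genes with an adjusted p under the threshold, DDX58 at -1.68, IFIH1 at -1.49, IRF7 at -0.86, TLR3 and IRF9 at -0.75 each, and STAT2 at -0.62. For A2058 the authors' deposited table, which pools both hairpins, listed only IFIH1 (-1.23), IRF9 (-0.64) and TLR3 (-0.53) below it. DDX58 had a DESeq2 adjusted p of 0.14 there, STAT2 0.33 and IRF7 0.36. For A375 the genes listed below it were those that limma called. For SKMEL2 they were IRF7 (-0.87), TLR3 (-0.77), STAT2 (-0.76) and IRF3 (-0.28). IFIH1 had a DESeq2 adjusted p of 0.084 in SKMEL2 and DDX58 0.096.

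The arms of a line share their control libraries, so their counts are given side by side. With KD1, 5 of 7 genes were lower and 1 higher in A2058 (background 31.9% and 38.6%), 6 of 9 and 1 in A375 (19.8% and 26.6%), and 4 of 7 and 1 in SKMEL2 (32.8% and 34.8%). With KD2, 3 of 7 were lower and 0 higher in A2058 (37.2% and 33.0%), 6 of 9 and 0 in A375 (20.9% and 22.6%), and 3 of 7 and 1 in SKMEL2 (31.1% and 32.2%). The A375 counts again include IFIH1 and IRF9, which entered that fit through the controls alone. The SKMEL2 counts with KD1 and with KD2 were the same without control 3. Of all 13722 genes tested in that fit, 4137 were lower and 4556 higher with KD1, and 3856 and 4161 with KD2. The gene that rose with KD1 was MAVS in each line, and the one that rose with KD2 was IRF1 in SKMEL2. In A2058 the 3 genes lower with KD2 were DDX58, IFIH1 and MAVS.

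Tested directly, KD2 was higher than KD1 for 5 of 7 genes in A2058 and lower for 1, where 31.6% and 40.7% of all genes were. The 5 were DDX58, IRF7, STAT2, IRF3 and IFIH1, the last by 0.32 ± 0.08 (limma adjusted p = 0.0054), and the 1 was MAVS. Of the 33 effectors in that line 11 were higher and 13 lower in KD2, with a median difference of -0.05. In SKMEL2, 3 of 7 were higher in KD2 (IFIH1, STAT2 and IRF1) and 1 lower (MAVS), against 33.3% and 35.2%. The effector median there was 0.14, with 8 of 32 higher and 2 lower. Without control 3, DDX58 (0.47, adjusted p = 0.00041) and IRF7 (-0.29, adjusted p = 0.021) were called as well. In A375, 0 of 9 were higher and 1 lower (MAVS), against 16.9% and 21.2%. Differences of the other 8 genes in A375 ran from -0.47 ± 0.21 for IRF7 to 0.42 ± 0.19 for IRF9 and did not pass (adjusted p of at least 0.086), with 22 of 34 effectors likewise not called. SIRT5 stood lower in KD1 than in KD2, at 8.44% against 20% of control in A2058, 3.89% against 12.4% in A375 and 7.01% against 20% in SKMEL2. The part of the depth of knockdown in these differences was not tested.

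**Figure D3:**
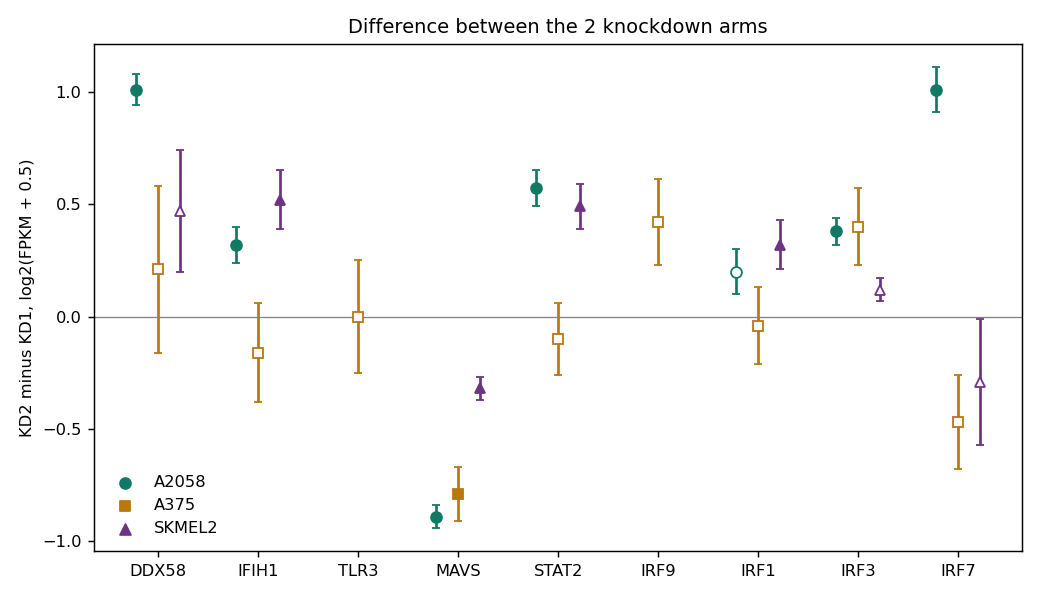
KD2 minus KD1 for each gene and line, as a difference of log2(FPKM + 0.5) with its standard error (filled: called; open: not called). MAVS lay below 0 in all 3 lines, and DDX58 and IRF7 lay at 1.01 in A2058.

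Whether the knockdown effect differed between lines was tested by an F-test over all 27 libraries. It was called for 5 of 9 genes, against 61.1% of all genes tested. DDX58 (adjusted p = 3.2e-05), IFIH1 (6.8e-06), IRF9 (0.0082), IRF1 (0.0012) and STAT2 (0.043) passed. Of these, IRF9 entered the fit through control libraries alone. The A375 effect of DDX58 was lower than that of A2058 by -2.09 ± 0.38 and that of IFIH1 by -0.89 ± 0.20. IFIH1 also fell less in SKMEL2 than in A2058, by 0.66 ± 0.20 (adjusted p = 0.017). IRF3 (0.051), IRF7 (0.14), TLR3 (0.29) and MAVS (0.79) did not pass, and without SKMEL2 control 3 IRF7 did (0.0033). The call of STAT2 was lost in 16 of the 27 fits that each left out 1 library, where its adjusted p reached 0.13, and IRF3 passed in 5 of them.

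The control arms, infected and selected like the knockdown arms, differed between the lines. Line and any batch of libraries cannot be told apart in these contrasts. Between the control arms of A375 and A2058, 7 of 9 genes were called, against 70.7% of all genes, and all 7 were higher in A375. IRF7 was higher by 1.67 ± 0.24, IRF1 by 1.19 ± 0.13, STAT2 by 1.12 ± 0.13, DDX58 by 1.03 ± 0.31, IRF3 by 0.87 ± 0.11, MAVS by 0.68 ± 0.08 and IRF9 by 0.40 ± 0.17 (limma adjusted p of at most 0.044). IRF9 passed the filter through 3 A375 controls and 1 SKMEL2 control, which favours a call of A375 as higher. Its call was lost in 5 of the 27 fits that left out 1 library. TLR3 passed the filter through no SKMEL2 library. SKMEL2 differed from A2058 in 4 genes, against 69.2%, with DDX58, TLR3 and IRF3 lower and STAT2 higher. The call of IRF3 was lost in 20 of the 27 fits that left out 1 library, and that of DDX58 in 5. Without SKMEL2 control 3 IRF9 was called lower (-0.57 ± 0.15) and IRF3 was not. The count was 2 without A2058 control 1 or control 3, and 1 with the replicate number as a block. SKMEL2 differed from A375 in 8 genes, against 73.0%, all lower. With all libraries, only IFIH1 had no called difference between any pair of control arms. Its means were 5.20 ± 1.30 in SKMEL2, 5.08 ± 0.414 in A2058 and 4.33 ± 1.45 in A375 (SD, n = 3), and the libraries overlapped. Without A375 control 1 its effect was -0.47 for A375 against A2058 and 0.48 for SKMEL2 against A375. All 9 genes were called between SKMEL2 and A375 in that fit. Ordered over the 9 groups, DDX58, STAT2, IRF7, IRF9, IRF1 and TLR3 had their highest mean in the A375 controls, where TLR3 overlapped the A2058 controls and IRF1 the A375 KD1 libraries. MAVS was highest in A375 KD1 at 26.0 ± 2.15 and IRF3 in A375 KD2 at 33.3 ± 6.90, which overlapped the A375 controls. By mean FPKM in the A2058 controls, a scale per length, the order ran from IRF3 (14.1) over MAVS (11), STAT2 (10.7), DDX58 (5.13), IFIH1 (5.08), IRF7 (4.73), IRF1 (1.74) and TLR3 (1.21) to IRF9 (0.935). MAVS and STAT2 overlapped in range, as did DDX58, IFIH1 and IRF7.

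**Figure D4:**
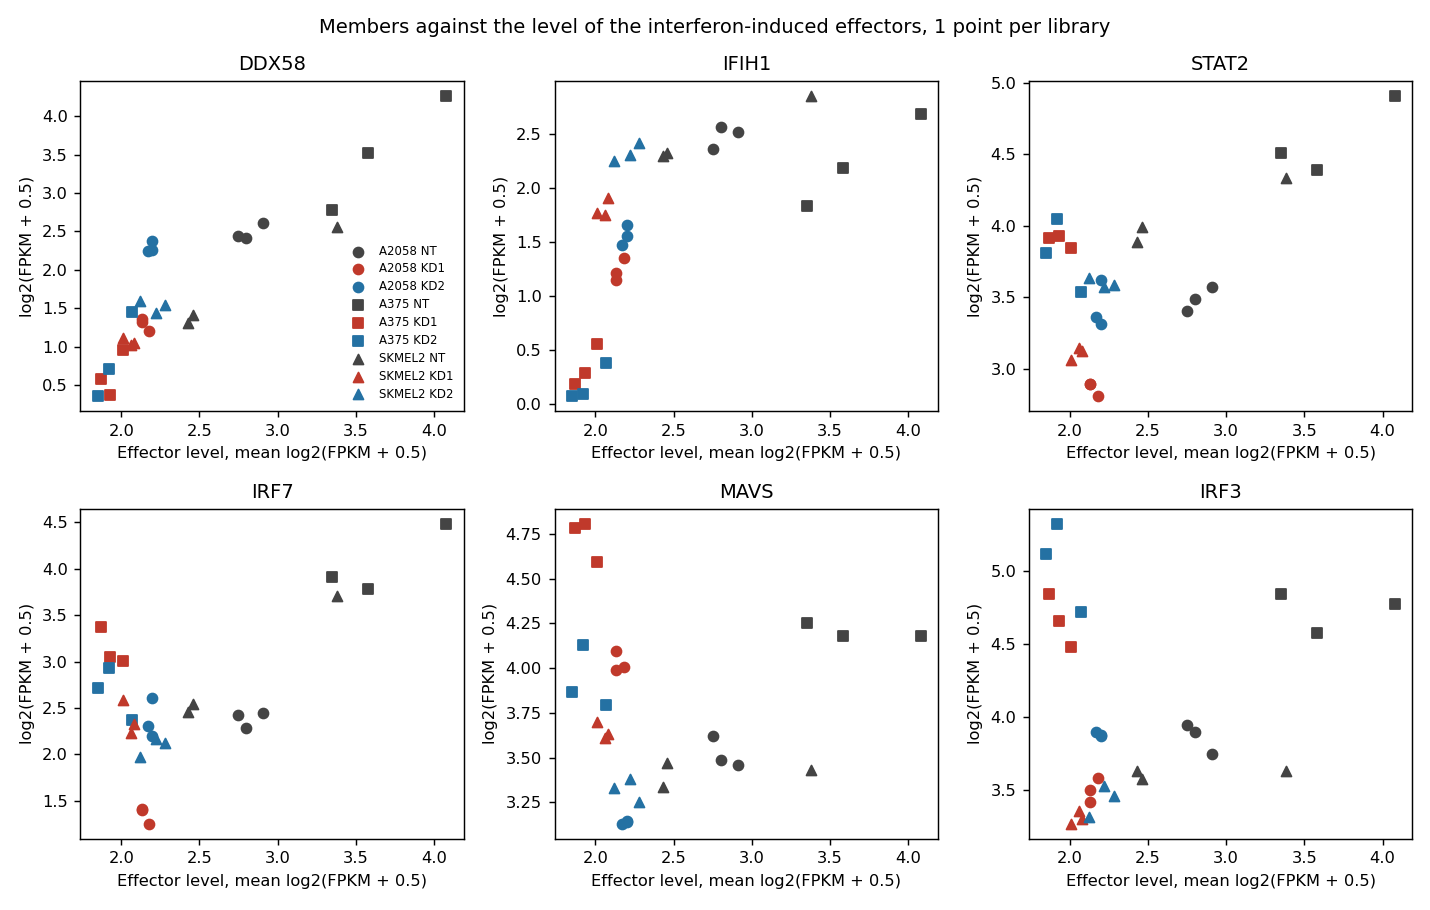
log2(FPKM + 0.5) of 6 genes against the mean log2(FPKM + 0.5) of 37 interferon-induced effectors, 1 point per library (shape: line; colour: arm). SKMEL2 control 3 (dark triangle at 3.38) and A375 control 1 (dark square at 4.08) lie at the upper end, where DDX58, IFIH1, STAT2 and IRF7 are high too, and MAVS and IRF3 show no such rise.

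Set against the effector level library by library, with each line centred on its own mean, Pearson's r over 27 libraries was 0.96 for IFIH1, 0.93 for DDX58, 0.83 for TLR3, 0.82 for IRF9, 0.80 for STAT2 and 0.79 for IRF7. It was 0.53 for IRF1, 0.03 for IRF3 and -0.18 for MAVS. For IRF1 and IRF3 the pooled r averaged lines that differed. Within A2058, A375 and SKMEL2, r was -0.13, 0.83 and -0.06 for IRF1. For IRF3 it was 0.46, -0.27 and 0.74, and for MAVS -0.15, -0.19 and -0.30. These values are descriptions, since the libraries fall into control and knockdown groups that set much of r. Within A2058, where DDX58 and IRF7 stayed near control in KD2, r was 0.67 and 0.55, while IFIH1 kept 0.97. SKMEL2 control 3, which was high in the effectors, was also the highest control of its line in DDX58, IFIH1, TLR3, STAT2, IRF9, IRF1 and IRF7. It was not so in MAVS, at 10.3 against 10.6 in control 1, and IRF3 was at 11.9 in controls 2 and 3 alike. Among 13665 genes the most like DDX58 over the same libraries were PLSCR1 (0.96), IFIH1 (0.94) and IFI16 (0.93). For IFIH1 they were IFIT3, TRIM69 and HERC6 (0.95 to 0.96), for STAT2 RTP4, AC017028.2 and OASL (0.90 to 0.91), for IRF9 USP18, OAS3 and OAS1 (0.88 to 0.89), and for IRF7 THEMIS2, SP110 and EXT1 (0.86 to 0.92). The genes most like MAVS were CDKN1A (0.97), which encodes a cell cycle inhibitor, POMT2 and LMF2 (0.96 each). Those most like TLR3 were MYNN, CEP57 and ZNF451 (0.91 to 0.93), most like IRF3 WDR74, FBXW5 and AAR2 (0.89 to 0.93), and most like IRF1 CHAC1, AOPEP and IFI6 (0.76 to 0.77).

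Of 30 other genes of the RIG-I-like receptor pathway 8 were lower, 11 higher and 11 not called over the lines, with a median of 0.08. The counts of this and the following lists stand beside a share of 32.0% of all genes in each direction and a median of 0.00. DHX58, the third helicase of the RIG-I family and itself interferon-induced, fell by 0.79 on the log2 scale. RNF125, a ubiquitin ligase that marks RIG-I for degradation, was at -0.72, the kinase gene CHUK at -0.59 and the adaptor gene AZI2 at 0.67. RNF125 rose in A2058 (0.15) and fell in A375 (-1.0) and SKMEL2 (-1.29). Of 10 other genes of Toll-like receptor signalling 1 was lower, TICAM1, the TLR3 adaptor gene for TRIF, at -0.67, and 5 were higher, among them UNC93B1, the chaperone that carries TLR3 to endosomes, at 0.86, with CD14 at 0.68 and TIRAP at 0.32 (median 0.21).

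Interferon receptors and the JAK-STAT genes went both ways, with 7 lower, 8 higher and 6 not called of 21 and a median of -0.02. SOCS3, a feedback inhibitor of cytokine receptors, was at 0.80, STAT3 at 0.70, and IFNGR2, a chain of the interferon gamma receptor, at 0.67. These means average arms that differed. In A2058 SOCS3 stood at 83.4% of the control mean with KD1 and 198% with KD2, and STAT3 at 79.3% and 176%. IFNGR2 stood at 88.8% and 104% in SKMEL2. Of 6 other IRF genes and IRF2-binding proteins 4 were lower, IRF4 at -0.74, IRF2BP2 at -0.72, and IRF5 and IRF2BPL at -0.31 each. IRF2, a repressor of interferon-induced genes, was higher at 0.43. IRF5 stood at 198% of the control mean with KD1 and 50.6% with KD2 in A375. IRF2BPL stood at 132% with KD1 and 75.7% with KD2 in A2058. Of 9 genes of cytosolic DNA sensing that were tested 6 were lower and 0 higher, with IFI16 at -0.88, RNASEH2B at -0.35, the RNA editing enzyme ADAR at -0.33 and STING1 at -0.30 (median -0.21). In A375 STING1 instead stood at 104% of the control mean with KD1 and 159% with KD2. Among 21 interferon genes listed, IFNE was the one measured here. In A2058 its mean FPKM was 0.584 with the control hairpin, 1.63 with KD1 and 0.950 with KD2, and it was at most 0.484 in any arm of A375 or SKMEL2. It passed the filter only through A2058 knockdown libraries and is given as a level, with no test.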

How the data were processed

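Total RNA of 27 libraries was sequenced. Per the submitters' processing notes the tools were FastQC 0.11.9, MultiQC 1.9, Trimmomatic 0.39, STAR 2.7.3a, Subread 2.0.0 with featureCounts and DESeq2 1.28.1, with GRCh38 and GENCODE 34. The sources used here do not give the role of every tool or the use of strand. Per the labels, 1 raw file of the A375 controls was truncated. The authors deposited FPKM values per gene and library, and 4 tables of DESeq2 comparisons. In these the authors' deposited baseMean is a signal (a mean of normalized counts), the deposited fold changes are log2 values with errors, the deposited stat is a score, and the deposited p-values are raw and adjusted. Scaled by baseMean, 100% of the FPKM values came out as whole reads within 0.05 of a read, so FPKM had been scaled by size factors.

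Tests used limma 3.58.1 (R 4.3.3) on log2(FPKM + 0.5) with a variance trend, fitted to genes that reached 1 FPKM in 3 or more libraries of the fit, with Benjamini-Hochberg adjustment over all of them and a threshold of 0.05. Each line was fitted alone with its 3 arms, and the knockdown effect is the mean of KD1 and KD2 minus control. The comparison over lines, the F-test between lines and the control-arm differences came from 1 fit of 9 groups. The limma fit was also run on simulated reads with known changes. These had the same change in both knockdown arms, independent libraries and the same dispersion for every gene. The simulation therefore does not cover arms that differ or libraries that deviate together, as some did in A375. Within each group every pair of libraries differed by more than sampling noise. The mean chi-square of reads per gene was 42.9 and 49.2 between A375 KD2 library 3 and libraries 1 and 2. It was 27 between A375 KD1 libraries 2 and 3, and at most 18.5 for any other pair. The members and lists were chosen with earlier results of these data known. From each list up to 4 genes are named, those called over the lines with the largest mean effect. A gene of the JAK-STAT list is not reported here by name. The genes most like a member are the 3 of highest Pearson r among genes that reached 1 FPKM in 9 or more libraries. Gene positions are from GENCODE 44, which matched 25905 of 26004 gene IDs. Alternatives were other pseudocounts, filters, scalings and variance models, limma-voom on the recovered reads, 1 fit for all lines, a replicate block and leaving out each library.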

Additional observations from a re-analysis of the deposited data

Results flagged for a closer look

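IRF9 in KD1 library 2 of A2058 had an FPKM of 0.870, far from the other 5 knockdown libraries of that line at 0.518 to 0.560, a gap of 0.88 of the whole range. The limit used for such a gap is passed by chance in about 1 in 20 groups. The knockdown effect differed between the lines for 5 of 9 genes by the limma F-test, against 61.1% of all genes tested. The F-test adjusted p-values were 3.2e-05 for DDX58, 6.8e-06 for IFIH1, 0.043 for STAT2, 0.0082 for IRF9 and 0.0012 for IRF1. The call of STAT2 was lost in 16 of the 27 fits that left out 1 library. IRF9 entered the fit through control libraries alone. For DDX58 the effects were -0.69, -2.79 and -0.46 in A2058, A375 and SKMEL2, and for IRF1 0.03, -0.52 and 0.23.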

How the results depend on the processing

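Outside the fits that left out 1 library, 171 of 173 counts of called genes stayed within 1.5 times of the reported one. The exceptions were KD2 against KD1 in A375, 2 genes under quantile normalization in place of 1, and the control arms of SKMEL2 and A2058, 1 gene under the replicate block in place of 4. Same-numbered libraries of different arms did not deviate together in A2058 and SKMEL2, with correlations from -0.04 to 0.04 and from -0.04 to 0.05. In A375 they ran from -0.53 to 0.33 (median -0.02), and those of differently numbered libraries from -0.36 to 0.54 (median 0.01). Some A375 libraries thus deviated together across arms whether or not they shared a number, and the fits do not model this. The numbers were not used as a pairing. With the replicate block 5, 6 and 4 genes were called in A2058, A375 and SKMEL2. Leaving out 1 library gave 4 to 5 genes called in A2058, 3 to 7 in A375 (3 without control 1, 4 without control 2, when 6 of the 9 genes passed the filter) and 3 to 5 in SKMEL2. It gave 6 to 6, 4 to 8 and 4 to 6 with KD1, 2 to 3, 3 to 7 and 3 to 4 with KD2 (the lowest A375 counts both without control 1), and 6 to 7, 1 to 2 and 3 to 6 for KD2 against KD1. Control arms of SKMEL2 and A2058 differed in 2 to 5 genes (2 without A2058 control 1 or 3). Reversals touched values that were not called. Under quantile normalization these were MAVS (-0.02) and IRF3 (-0.07) in A375, IRF1 with KD1 (0.05) and IRF7 with KD2 (0.06) in A2058, and IRF1 for KD2 against KD1 in A375 (0.06). Under median scaling they were STAT2 (0.02) and IRF7 (0.06) with KD2 in A2058, and STAT2 (0.0011) and IRF1 (0.06) for KD2 against KD1 in A375. TLR3 for KD2 against KD1 in A375 went to -0.02 with a pseudocount of 0.1 and -0.04 with limma-voom. With 1 library left out, IRF1 in A2058 ran from -0.03 to 0.09, IRF3 with KD1 in A375 from -0.16 to 0.02, IRF1 with KD1 in SKMEL2 from -0.03 to 0.15, and in A2058 with KD2 STAT2 from -0.15 to 0.0044, IRF3 from -0.04 to 0.06 and IRF7 from -0.14 to 0.07. With KD2 in SKMEL2, DDX58 ran from -0.46 to 0.17 and IFIH1 from -0.26 to 0.02. For KD2 against KD1 in A375, DDX58 ran from -0.10 to 0.45, TLR3 from -0.07 to 0.13, STAT2 from -0.22 to 0.03 and IRF1 from -0.11 to 0.09. Between controls, TLR3 ran from -0.05 to 0.29 (A375 against A2058), and IFIH1 from -0.17 to 0.11 and IRF1 from -0.15 to 0.04 (SKMEL2 against A2058). The causes were not tested. Depth limits IRF9 and TLR3 in A375, with as few as 16 and 18 reads.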
